A study of Mus musculus with 16 samples.

Results

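The enzymes and regulators of the phosphofructokinase step were followed as 10 genes, chosen by their symbols in the deposited table. They are the 3 phosphofructokinase isozymes (*Pfkm*, *Pfkl* and *Pfkp*), the 4 genes of the PFKFB family (*Pfkfb1*, *Pfkfb2*, *Pfkfb3* and *Pfkfb4*), *Tigar*, and both fructose bisphosphatases (*Fbp1* and *Fbp2*). All 10 were among the 55492 genes of the table, and all 10 passed the filter for testing, a mean of at least 10 normalized counts over the libraries. RNA was sequenced from left ventricles of male C57BL/6 mice, 8 to 12 weeks old according to the labels. PKM2fl/fl mice carry a floxed *Pkm* allele and served as controls, and PKM2-/- mice are global knockouts made with Cre driven by a CMV promoter, with the Cre allele later bred out, so that cells of every type lack exon 10 of *Pkm*. Each genotype was sampled untreated (baseline, 2 mice), 3 days after sham surgery (3 mice), and 3 days after permanent ligation of the left anterior descending artery (MI, 3 mice), which gave 16 libraries.

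Phosphofructokinase transfers a phosphate from ATP to fructose 6-phosphate, the committed step of glycolysis. *Pfkm* encodes the muscle isozyme, *Pfkl* the liver isozyme and *Pfkp* the platelet isozyme, and the active enzyme is a tetramer that can mix them. Its most potent allosteric activator is fructose 2,6-bisphosphate, which PFKFB enzymes both make with a kinase domain and remove with a phosphatase domain. PFKFB1 is known from liver and muscle, PFKFB2 from heart, where insulin and adrenergic signalling raise its kinase activity, and PFKFB3 and PFKFB4 as hypoxia-inducible forms, with PFKFB3 strongly biased towards the kinase. TIGAR lowers fructose 2,6-bisphosphate as a bisphosphatase, and FBP1 (liver) and FBP2 (muscle) catalyze the opposing reaction at the phosphofructokinase step.

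Since the study names HIF-1α as a partner of nuclear PKM2, the 250 bases before each annotated transcription start were searched for the core of the hypoxia response element, ACGTG or GCGTG, on both strands. The E-box CACGTG was searched too; it contains ACGTG on each strand, so these motifs overlap. RefSeq listed 19 start sites for the 10 genes on GRCm38.p6. ACGTG or GCGTG was present before 13 of the 19 starts, against 38.6% of 32851 mouse promoter windows of the same length. The windows are not all distinct, since some of *Pfkm* and of *Pfkfb2* overlap, and overlapping *Pfkm* windows hold the same GCGTG. At least 1 start of 8 genes had either motif. That count per gene cannot be set against the share per window, as genes had up to 4 starts. ACGTG alone was present before 7 starts (16.6% of all windows) and CACGTG before 4 (6.02% of all windows), and GCGTG was present in 28.2% of all windows. Windows without either motif included those of *Tigar* and *Fbp1*. The windows of *Pfkp* and *Pfkfb4*, higher after MI in each genotype, and of *Pfkfb3* (2 starts), called higher in PKM2-/- hearts only, are shown. The window of *Fbp2*, the member with the greatest fall in either genotype, is shown too. All are written 5′ to 3′ on the gene's strand with the motifs in capitals. They lie at chr13:6648772-6649021 (*Pfkp*, minus strand), chr2:11553930-11554179 and chr2:11502091-11502340 (*Pfkfb3*, minus strand), chr9:108991652-108991901 (*Pfkfb4*, plus strand) and chr13:62858401-62858650 (*Fbp2*, minus strand).
Pfkp: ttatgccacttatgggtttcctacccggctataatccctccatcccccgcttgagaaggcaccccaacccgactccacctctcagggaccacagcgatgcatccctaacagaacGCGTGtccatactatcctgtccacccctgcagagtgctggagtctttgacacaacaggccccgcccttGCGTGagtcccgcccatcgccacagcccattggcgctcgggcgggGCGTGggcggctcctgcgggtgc
Pfkfb3, upstream start: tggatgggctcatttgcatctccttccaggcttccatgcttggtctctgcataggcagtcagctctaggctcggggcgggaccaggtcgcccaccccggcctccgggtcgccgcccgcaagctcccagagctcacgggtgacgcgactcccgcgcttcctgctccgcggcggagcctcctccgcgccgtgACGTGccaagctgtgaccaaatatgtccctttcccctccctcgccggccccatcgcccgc
Pfkfb3, downstream start: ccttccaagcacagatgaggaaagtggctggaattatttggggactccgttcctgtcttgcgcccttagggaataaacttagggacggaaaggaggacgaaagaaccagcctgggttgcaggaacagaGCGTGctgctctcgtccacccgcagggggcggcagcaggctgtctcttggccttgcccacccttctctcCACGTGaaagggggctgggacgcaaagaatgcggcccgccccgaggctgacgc
Pfkfb4: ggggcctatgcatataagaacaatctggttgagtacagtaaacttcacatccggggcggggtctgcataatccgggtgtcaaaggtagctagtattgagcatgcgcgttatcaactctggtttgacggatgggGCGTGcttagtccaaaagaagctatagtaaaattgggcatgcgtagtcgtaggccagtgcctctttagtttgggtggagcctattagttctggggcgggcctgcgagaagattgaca
Fbp2: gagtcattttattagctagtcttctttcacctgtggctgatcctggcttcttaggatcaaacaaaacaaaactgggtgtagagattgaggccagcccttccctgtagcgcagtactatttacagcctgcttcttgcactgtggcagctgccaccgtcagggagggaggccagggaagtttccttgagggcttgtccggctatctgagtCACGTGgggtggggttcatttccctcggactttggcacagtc
The motifs occurred before genes that rose and before genes that fell. The *Pfkp* window held GCGTG 3 times, the *Pfkfb4* window held it once, and CACGTG stood before the downstream *Pfkfb3* start and before *Fbp2*.

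Library size ranged from 20623769 to 71855101 reads on genes. Reads on rRNA-related loci made up 15.9% to 49.4% of a library, and the mean share was 19.8% in PKM2fl/fl and 43.1% in PKM2-/- hearts at baseline. In PKM2fl/fl hearts it was 22.4% after sham surgery and 39.4% after MI, and in PKM2-/- hearts 36.0% and 29.0%. *Pkm* as a whole gene had 7779 to 12076 normalized counts in the PKM2fl/fl libraries and 10120 to 16113 in the PKM2-/- libraries; a count over the gene also holds *Pkm1* transcripts and does not check the deletion. No cardiomyocyte marker was at 0 in any library. The summed level of 10 cardiomyocyte markers was 1474560 to 1634540 after sham surgery and 298110 to 655739 after MI in PKM2fl/fl hearts, and 1321030 to 1642700 and 294937 to 378357 in PKM2-/- hearts. The library of PKM2fl/fl MI replicate 3 stood apart from its group, with a marker sum of 298110 beside 655739 and 648433 in replicates 1 and 2. Macrophage and monocyte markers rose (8 of 8 in each genotype) and so did 5 of 6 fibroblast markers, while 1 fibroblast marker fell. Of the other lists, 2 of 5 tested neutrophil markers rose in each genotype, 1 of 4 atrial markers rose, none of 5 erythroid markers and not the 1 tested adipocyte marker passed the test, and endothelial markers passed in 2 of 5 (both higher, PKM2fl/fl) and 2 of 5 (1 higher and 1 lower, PKM2-/-). *Ly6g*, *Sln*, *Adipoq* and *Lep* were at 0 in at least 1 library. On the opposite strand, *Pfkm* overlaps with *Senp1*, *Pfkl* with *Cfap410*, *Pfkp* with *Pitrm1*, *Pfkfb1* with *Apex2* and *Tigar* with *Platr31*, and reads of such pairs could have been shared if strand was not used in counting. In bulk tissue, fewer cells of a type and less RNA per cell cannot be told apart, and the part of these markers in the results that follow was not tested.

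After MI, transcripts of *Pfkm*, *Pfkfb1*, *Pfkfb2*, *Tigar* and *Fbp2* were lower and those of *Pfkp* and *Pfkfb4* higher than after sham surgery in each genotype. In PKM2fl/fl hearts, 7 of the 10 genes passed the test (limma, adjusted p under 0.05), 2 higher and 5 lower, and 6 of them changed at least 2-fold. Of all 20576 genes tested, 50.1% passed in this comparison, 24.8% higher and 25.3% lower, and 23.5% passed with a 2-fold change. Of the 10 genes, 9 passed in PKM2-/- hearts, 3 higher and 6 lower, against 56.8% of all genes (28.7% higher and 28.1% lower), and 6 changed at least 2-fold, against 28.8%. Over the 10 genes the log2 fold changes had a median of -1.19 in PKM2fl/fl and -1.55 in PKM2-/- hearts, where that of all genes was -0.0025 and 0.0105.

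**Figure D1:**
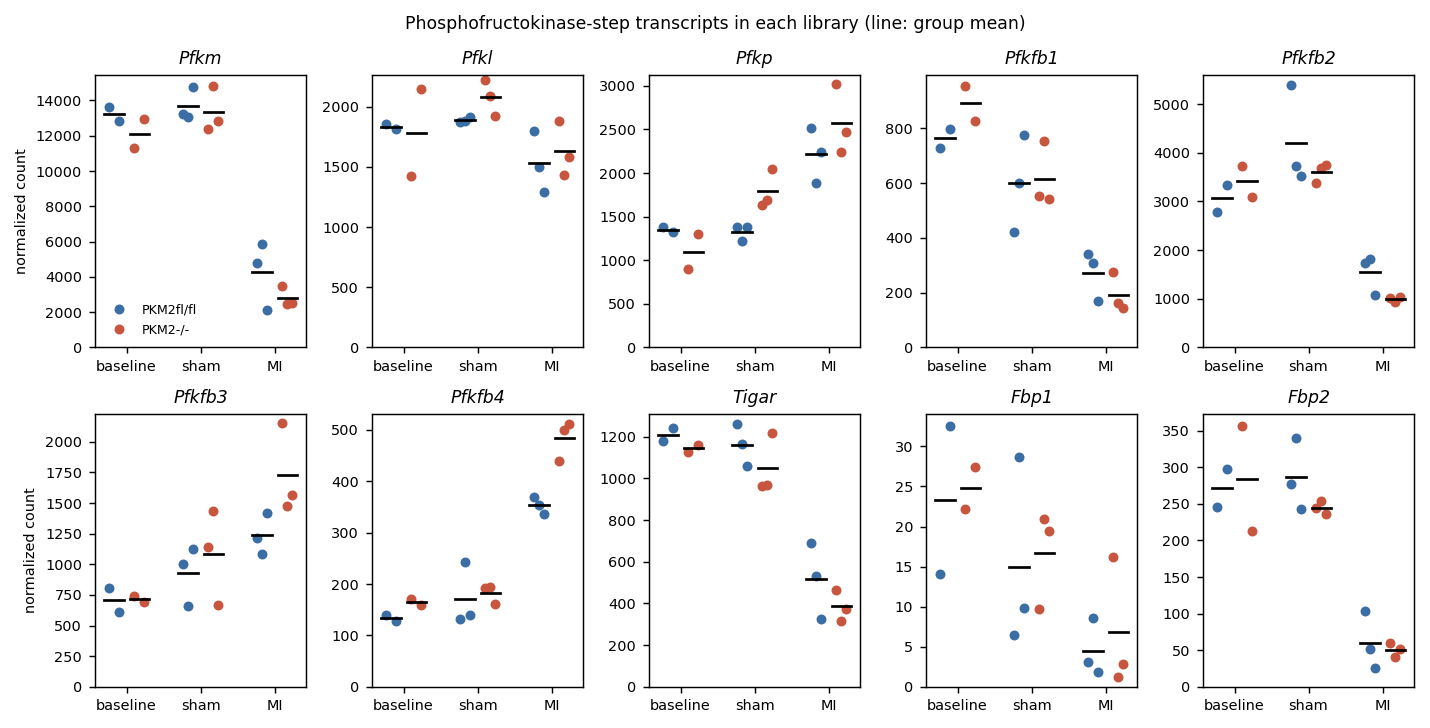
Normalized counts (linear axis from 0) of each gene in every library, by treatment; each point is 1 mouse (blue, PKM2fl/fl; red, PKM2-/-) and each line a group mean. *Pfkm*, *Pfkfb1*, *Pfkfb2*, *Tigar* and *Fbp2* sit lower in all 6 MI libraries than in any other library, and *Pfkfb4* sits higher.

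*Pfkm* was the predominant phosphofructokinase transcript of the uninjured ventricle. In GRCm39 it lies on the plus strand of chromosome 15, from 97990451 to 98031417. It had 13615 and 12827 normalized counts in PKM2fl/fl hearts at baseline, 13233, 13074 and 14775 after sham surgery, and 4812, 5884 and 2105 after MI. The PKM2-/- hearts had 11287 and 12927 normalized counts at baseline, 12374, 14833 and 12816 after sham surgery, and 3484, 2445 and 2548 after MI. The MI libraries lay below all sham libraries in each genotype, and replicate 3 was the lowest of the PKM2fl/fl MI hearts. *Pfkm* fell 3.499-fold in PKM2fl/fl hearts (log2 fold change -1.81, standard error 0.27, adjusted p = 5.4e-05) and 4.77-fold in PKM2-/- hearts (log2 fold change -2.25, standard error 0.27, adjusted p = 5.1e-06). Across the 16 libraries, the genes most like *Pfkm* in their log2 levels were *Lmo7* (Pearson r = 0.996), *Asb2* (r = 0.996) and *Dgat2* (r = 0.995), a description in which all points share the fall after MI.

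*Pfkl* (chromosome 10, 77818084 to 77845922, minus strand) differed by a small amount. Its normalized counts were 1871 to 1916 after sham surgery and 1293 to 1799 after MI in PKM2fl/fl hearts, and 1923 to 2222 and 1431 to 1882 in PKM2-/- hearts. The MI libraries lay below the sham libraries in each genotype, without overlap. *Pfkl* differed by -0.32 on the log2 scale (standard error 0.15, adjusted p = 0.0874) in PKM2fl/fl hearts and by -0.36 (standard error 0.15, adjusted p = 0.0496) in PKM2-/- hearts. Without PKM2fl/fl MI replicate 1, the former passed the test (-0.44, adjusted p = 0.029). The latter passed under only 2 of 15 other settings. Its sign turned when libraries were scaled to their total reads (0.16, adjusted p = 0.702), where the median of all genes was 0.52. The genes most like *Pfkl* were *Tomm40* (r = 0.907), *Paf1* (r = 0.882) and *Spef1* (r = 0.878).

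*Pfkp* (chromosome 13, 6629798 to 6698970, minus strand), in contrast, rose with MI in each genotype. It had 1379 and 1323 normalized counts in PKM2fl/fl hearts at baseline, 1383, 1225 and 1380.5 after sham surgery, and 2512, 1891 and 2245 after MI. The PKM2-/- hearts had 894 and 1303 normalized counts at baseline, 1635, 1696.5 and 2049.7 after sham surgery, and 3023, 2243 and 2468 after MI. Every MI library was above every sham library of its genotype, and the 3 PKM2-/- sham libraries were above the 3 PKM2fl/fl sham libraries. The rise was 1.66-fold in PKM2fl/fl hearts (log2 fold change 0.73, standard error 0.15, adjusted p = 0.00088) and 1.43-fold in PKM2-/- hearts (log2 fold change 0.52, standard error 0.15, adjusted p = 0.0081). Scaled to total reads, the PKM2fl/fl rise did not pass (0.55, adjusted p = 0.158), where the median of all genes was -0.18. *Gm44876* (r = 0.946), *4731419I09Rik* (r = 0.944) and *Ubqln1* (r = 0.942) followed *Pfkp* most closely.

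The isozyme composition shifted with MI. Levels of different genes were compared per kilobase of exon, over the union of annotated exons. *Pfkm* made up 86.6% to 87.6% of phosphofructokinase transcripts in PKM2fl/fl sham hearts, and 64.7%, 73.9% and 49.8% in replicates 1, 2 and 3 after MI. Its share in PKM2-/- hearts was 83.5% to 86.2% after sham surgery and 51.0% to 54.1% after MI. The *Pfkp* share rose from 4.61% ± 0.28 to 20.1% ± 8.1 (SD, n = 3) in PKM2fl/fl hearts and from 6.23% ± 0.99 to 26.2% ± 0.69 in PKM2-/- hearts. The *Pfkl* share rose from 8.38% ± 0.41 to 17.1% ± 4.1 and from 9.23% ± 1.1 to 21.2% ± 0.85. No MI share overlapped with the sham shares of its genotype for any of the 3 isozymes. The size of these shares depended on the length used. Per kilobase of coding sequence, the *Pfkp* share was 7.55% ± 0.44 after sham surgery and 28.4% ± 9.6 after MI in PKM2fl/fl hearts, and the *Pfkm* share in PKM2-/- MI hearts was 40.7% ± 1.5, below the 52.5% ± 1.5 per kilobase of exon. Averaged over the genotypes, the share per kilobase of exon moved by -28.1 percentage points for *Pfkm*, 10.4 for *Pfkl* and 17.7 for *Pfkp*, each with p = 0.005 in a two-sided exact permutation test within genotype, which is the smallest p that its 400 assignments allow. Shares within a family sum to 100%, so the tests of its members are not independent, and 7 shares were tested in the 2 families. The summed phosphofructokinase level per kilobase fell from 1755 ± 110 to 729 ± 225 (SD, n = 3) in PKM2fl/fl and from 1758 ± 142 to 598 ± 106 in PKM2-/- hearts, so the larger shares of *Pfkl* stood in a smaller total. After MI, *Pfkl* (119 ± 19.7 normalized counts per kilobase) and *Pfkp* (135 ± 18.9) overlapped in PKM2fl/fl hearts per kilobase of exon. Per kilobase of coding sequence they did not, at 628, 525 and 452 for *Pfkl* and 838, 631 and 749 for *Pfkp* in replicates 1, 2 and 3.

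**Figure D2:**
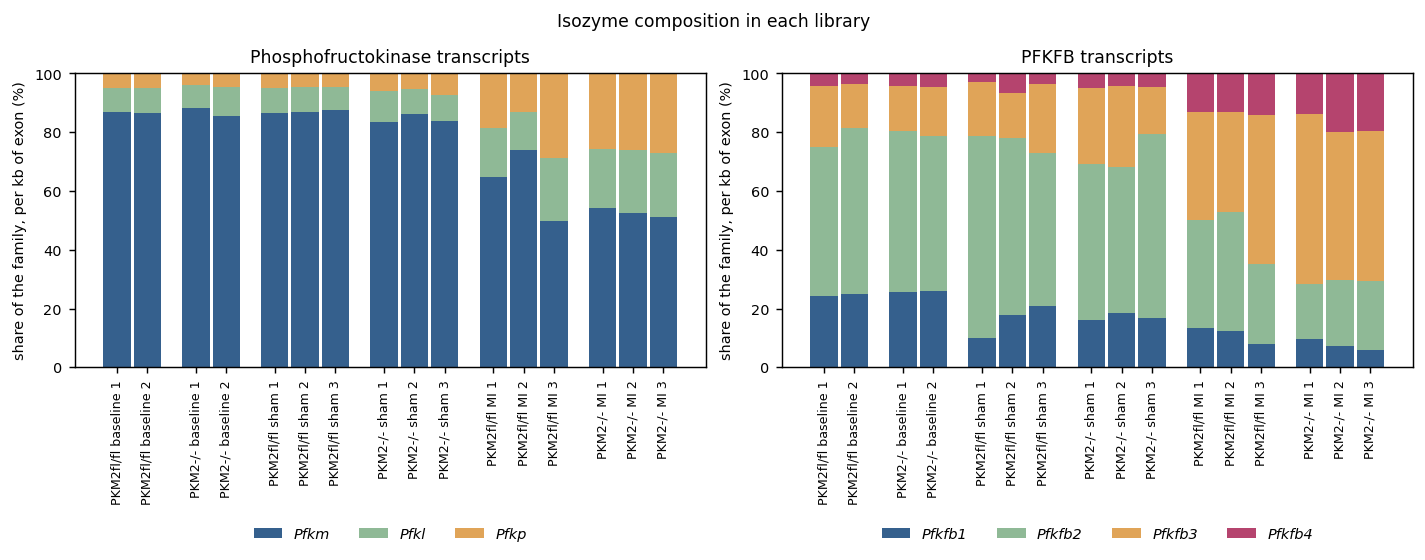
Share of each isozyme (percent of its family's normalized counts per kilobase of exon, stacked to 100) in each of the 16 libraries, phosphofructokinases on the left and PFKFB genes on the right. The *Pfkm* share lies between 83.5% and 88.4% in baseline and sham libraries and between 49.8% and 73.9% in MI libraries.

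Among the PFKFB genes, the forms known from heart and liver fell with MI. *Pfkfb2* (chromosome 1, 130616779 to 130656990, minus strand) had 2794 and 3339 normalized counts in PKM2fl/fl hearts at baseline, 5386, 3719 and 3529 after sham surgery, and 1728, 1822 and 1084 after MI. The PKM2-/- hearts had 3727 and 3097 at baseline, 3378, 3693 and 3758 after sham surgery, and 1012, 939 and 1029 normalized counts after MI. The MI libraries lay below all others, and the 3 PKM2-/- MI libraries lay below the 3 PKM2fl/fl MI libraries. The fall was 2.75-fold in PKM2fl/fl hearts (log2 fold change -1.46, standard error 0.18, adjusted p = 1.3e-05) and 3.63-fold in PKM2-/- hearts (log2 fold change -1.86, standard error 0.18, adjusted p = 1.0e-06). *Pfkfb2* overlaps on the same strand with *Gm29427* over 26758 bases, and the reads of *Gm29427* were 0.943 to 1.01 times those of *Pfkfb2* in baseline and sham libraries and 0.727 to 0.903 times in MI libraries. The ratio was thus lower in every MI library, and how many reads the overlapping part gave to each gene was not tested. *Pfkfb1* (chromosome X, 149371225 to 149426874, plus strand) fell from 422 to 775 normalized counts after sham surgery to 171 to 340.1 after MI in PKM2fl/fl hearts, and from 543 to 752 to between 143 and 275 in PKM2-/- hearts, without overlap. The change was -1.15 on the log2 scale (standard error 0.28, adjusted p = 0.0031) in PKM2fl/fl hearts and -1.71 (standard error 0.28, adjusted p = 9.3e-05) in PKM2-/- hearts.

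*Pfkfb4* rose in each genotype, and *Pfkfb3* passed the test in PKM2-/- hearts. *Pfkfb3* (chromosome 2, 11476244 to 11558888, minus strand) had 807 and 612 normalized counts in PKM2fl/fl hearts at baseline, 1006, 661 and 1124 after sham surgery, and 1215, 1081 and 1421 after MI. The PKM2-/- hearts had 739 and 693 normalized counts at baseline, 1143, 1434 and 669 after sham surgery, and 2151, 1477 and 1562 after MI. Sham and MI libraries overlapped in PKM2fl/fl hearts and not in PKM2-/- hearts, and the sham libraries were widely spread in each. *Pfkfb3* differed by 0.44 on the log2 scale (standard error 0.25, adjusted p = 0.156) in PKM2fl/fl hearts and by 0.73 (standard error 0.25, adjusted p = 0.0212) in PKM2-/- hearts. The PKM2-/- rise was lost without PKM2-/- sham replicate 3 (0.41, adjusted p = 0.131) or without PKM2-/- MI replicate 1 (0.56, adjusted p = 0.0975). *Parvg* (r = 0.935), *Cyth3* (r = 0.922) and *Cemip2* (r = 0.921) were most like *Pfkfb3* over the 16 libraries.

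*Pfkfb4* (chromosome 9, 108820832 to 108862847, plus strand), the scarcest of the family per kilobase in sham hearts, had 139 and 129 normalized counts in PKM2fl/fl hearts at baseline, 133, 242 and 139 after sham surgery, and 369, 355 and 337 after MI. The PKM2-/- hearts had 170.2 and 159 at baseline, 193, 193 and 161 after sham surgery, and 439, 499 and 512 normalized counts after MI. All MI libraries were above all others, and the 3 PKM2-/- MI libraries were above the 3 PKM2fl/fl MI libraries. It rose 2.14-fold (log2 fold change 1.10, standard error 0.18, adjusted p = 0.00016) and 2.65-fold (log2 fold change 1.40, standard error 0.18, adjusted p = 1.3e-05) in PKM2fl/fl and PKM2-/- hearts.

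The mix of PFKFB transcripts shifted from *Pfkfb2* to *Pfkfb3* and *Pfkfb4*. Per kilobase of exon, the *Pfkfb2* share was 60.4% ± 8.4 after sham surgery and 34.8% ± 6.8 after MI (SD, n = 3) in PKM2fl/fl hearts, and 55.3% ± 6.9 and 21.7% ± 2.4 in PKM2-/- hearts. The *Pfkfb3* share was 19.1% ± 4.2 and 40.6% ± 9.0 in PKM2fl/fl hearts, and 23.0% ± 6.2 and 53.0% ± 4.1 in PKM2-/- hearts. The *Pfkfb4* share was 4.28% ± 2.0 and 13.5% ± 0.57 in PKM2fl/fl hearts, and 4.65% ± 0.39 and 17.8% ± 3.5 in PKM2-/- hearts. Sham and MI shares did not overlap for these 3 genes in either genotype. Averaged over the genotypes, *Pfkfb2* lost 29.6 percentage points, a change of -29.6, while *Pfkfb3* gained 25.7 and *Pfkfb4* gained 11.2 (two-sided exact permutation test, p = 0.005 for each, the smallest possible). *Pfkfb1* moved by -7.28 percentage points (exact permutation p = 0.015), with overlap in PKM2fl/fl hearts, and did not pass per kilobase of canonical transcript (-4.80 percentage points, exact permutation p = 0.065) or with the replicate number as a block (exact permutation p = 0.0625). Which gene led after MI depended on the length used, since per kilobase of canonical transcript *Pfkfb2* still held 51.3% ± 6.1 beside 23.4% ± 7.3 for *Pfkfb3* in PKM2fl/fl hearts, and 37.4% ± 3.4 beside 34.9% ± 3.3 in PKM2-/- hearts. The summed PFKFB level per kilobase of exon fell from 602 ± 72.5 to 383 ± 32.4 in PKM2fl/fl and from 573 ± 66.2 to 402 ± 53.0 in PKM2-/- hearts. The larger shares of *Pfkfb3* and *Pfkfb4* thus stood in a smaller total. The level of *Pfkfb3* itself did not pass the test in PKM2fl/fl hearts (limma, adjusted p = 0.156).

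*Tigar*, whose product removes the activator, and *Fbp2*, whose product opposes the step, fell. *Tigar* (chromosome 6, 127062079 to 127086545, minus strand) went from 1058 to 1263 normalized counts after sham surgery to between 325 and 689 after MI in PKM2fl/fl hearts, and from 965 to 1218 to between 318 and 465 in PKM2-/- hearts. *Fbp2* (chromosome 13, 62984691 to 63006552, minus strand) had 277, 339.8 and 243 normalized counts after sham surgery and 104, 51.4 and 25.6 after MI in PKM2fl/fl hearts, and 244, 255 and 236 beside 59.2, 40.0 and 51.9 in PKM2-/- hearts. Neither gene overlapped between sham and MI. *Tigar* fell 2.35-fold (log2 fold change -1.23, standard error 0.21, adjusted p = 0.00017) and 2.74-fold (-1.45, standard error 0.21, adjusted p = 2.8e-05), and *Fbp2* fell 5.41-fold (-2.44, standard error 0.35, adjusted p = 4.9e-05) and 4.85-fold (-2.28, standard error 0.35, adjusted p = 6.1e-05) in PKM2fl/fl and PKM2-/- hearts. *Fbp1* (chromosome 13, 63012567 to 63036263, minus strand) was scarce, with 2 to 49 reads in a library, and its log2 fold changes of -1.48 (adjusted p = 0.104) and -1.66 (adjusted p = 0.064) did not pass. It passed without PKM2fl/fl MI replicate 2 (-1.98, adjusted p = 0.0492) and without PKM2-/- MI replicate 1 (-2.50, adjusted p = 0.0063), the highest MI library of each genotype.

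**Figure D3:**
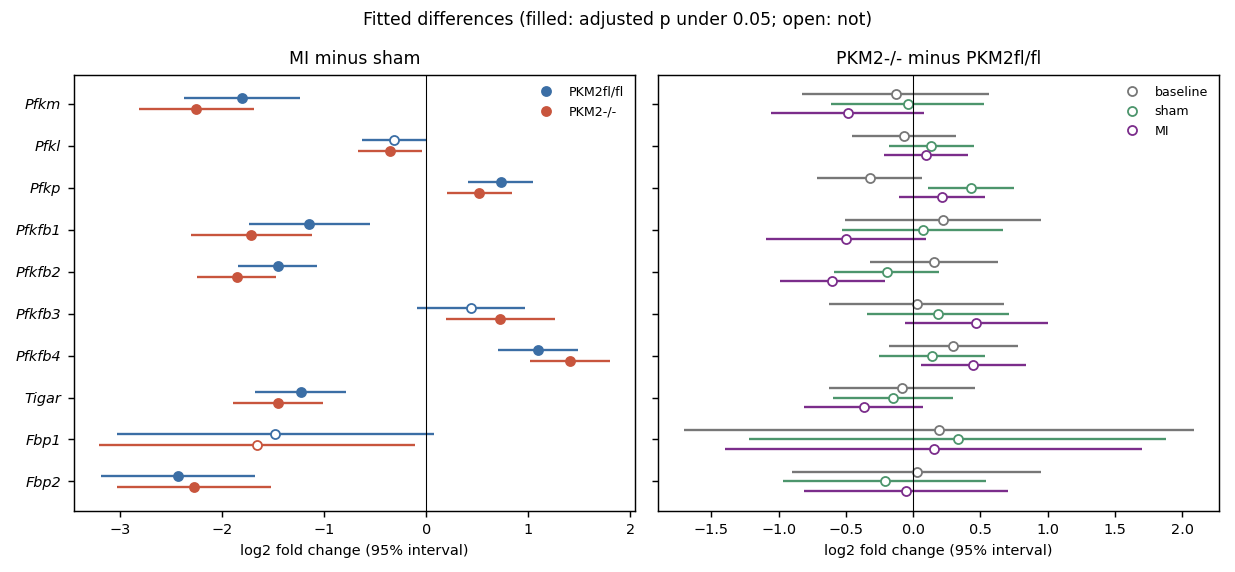
Log2 fold changes with 95% intervals from the fit of all 16 libraries, for MI minus sham in each genotype (left) and PKM2-/- minus PKM2fl/fl at baseline, after sham surgery and after MI (right); filled points have an adjusted p under 0.05. In the left panel, 7 of 10 points (PKM2fl/fl) and 9 of 10 (PKM2-/-) are filled, against 50.1% and 56.8% of all genes. The right panel holds none of 30.

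Set against the cardiomyocyte markers of the same library, the members fell into groups. *Pfkm* had 8.62 to 9.04 normalized counts per 1000 marker counts after sham surgery and 7.06 to 9.07 after MI in PKM2fl/fl hearts, and 9.01 to 9.37 and 7.80 to 9.21 in PKM2-/- hearts, so its ratio overlapped where its level did not. *Pfkfb2* likewise overlapped in PKM2fl/fl hearts, at 2.16 to 3.51 after sham surgery and 2.64 to 3.64 after MI, and in PKM2-/- hearts, at 2.25 to 2.64 and 2.67 to 3.49, the MI ratios lay just above those after sham surgery. The *Fbp2* ratio, 0.149 to 0.230 after sham surgery and 0.0793 to 0.158 after MI in PKM2fl/fl hearts, also overlapped. It overlapped in PKM2-/- hearts too, at 0.155 to 0.185 and 0.128 to 0.176, and the ratio of the scarce *Fbp1* overlapped in each genotype. *Tigar* and *Pfkfb1* had higher ratios after MI, although their levels were lower. The *Tigar* ratio was 0.648 to 0.823 after sham surgery and 0.823 to 1.09 after MI in PKM2fl/fl hearts, with a gap that rounding hides, and 0.590 to 0.856 and 1.01 to 1.27 in PKM2-/- hearts. The *Pfkfb1* ratio was 0.275 to 0.474 and 0.476 to 0.574 in PKM2fl/fl hearts, and 0.381 to 0.458 and 0.484 to 0.726 in PKM2-/- hearts, where the MI ratios overlapped with those at baseline (0.510 to 0.663). *Pfkl* was at 1.17 to 1.28 per 1000 marker counts after sham surgery and at 2.32 to 4.34 after MI in PKM2fl/fl hearts. In PKM2-/- hearts it was at 1.27 to 1.68 and 4.56 to 5.36, although its counts after MI lay below those after sham surgery in each genotype. *Pfkp* was at 0.830 to 0.901 after sham surgery and 2.92 to 7.53 after MI in PKM2fl/fl hearts, and at 1.03 to 1.44 and 7.16 to 8.37 in PKM2-/- hearts. *Pfkfb3* was at 0.448 to 0.687 and 1.67 to 4.77 in PKM2fl/fl hearts, and at 0.470 to 0.873 and 4.71 to 5.69 in PKM2-/- hearts. *Pfkfb4* was at 0.0849 to 0.164 and 0.547 to 1.13, and at 0.113 to 0.146 and 1.16 to 1.74. A gene that falls less than the marker sum has a higher ratio. These ratios are descriptions, given with no test.

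**Figure D4:**
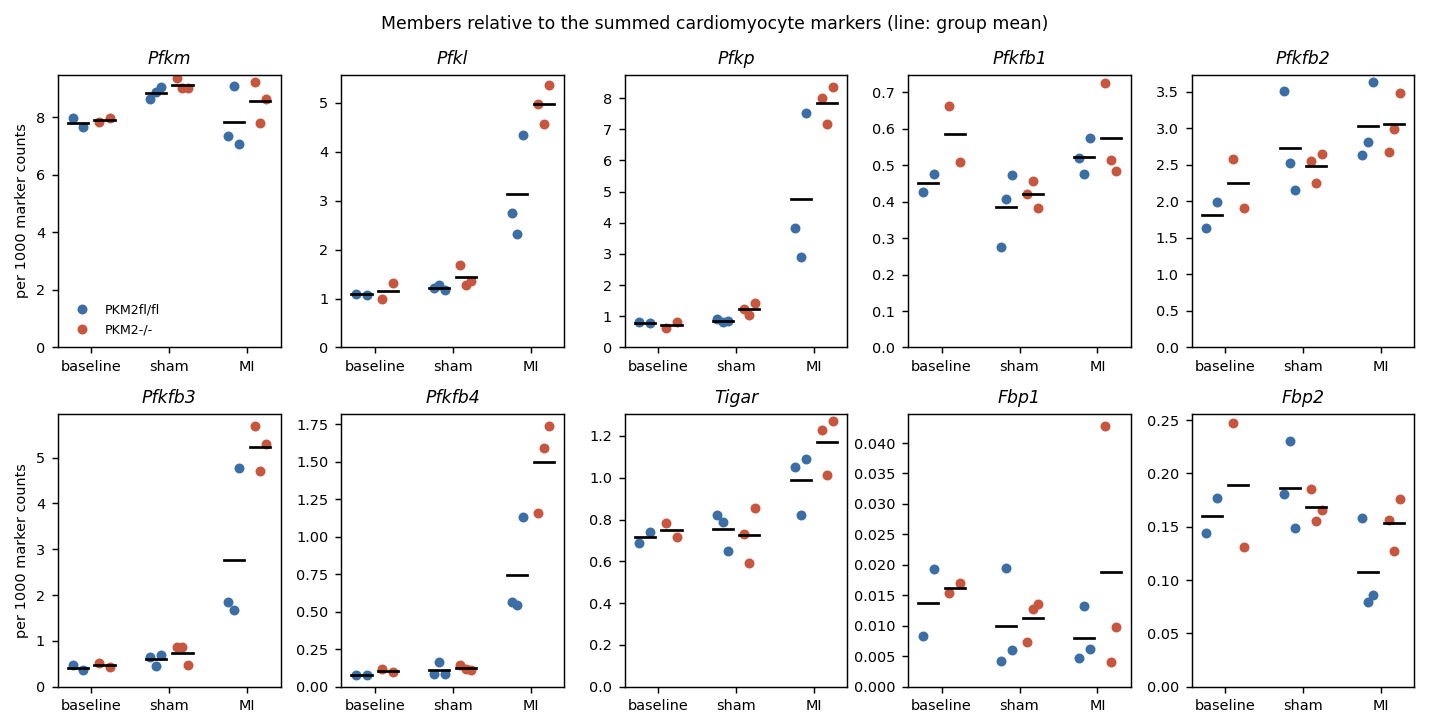
Normalized counts of each gene per 1000 counts of the 10 summed cardiomyocyte markers (linear axis from 0) in every library; each point is 1 mouse (blue, PKM2fl/fl; red, PKM2-/-) and each line a group mean. *Pfkm* stays between 7.06 and 9.37 in all 16 libraries, while *Pfkp* goes from at most 1.44 in baseline and sham libraries to 2.92 or more after MI.

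Loss of PKM2 was compared at each treatment and in its effect on the response to MI. No gene of the phosphofructokinase step passed the test at baseline (limma, 0 of 10, and 0 at an unadjusted p under 0.05). By limma, 0.00972% of all genes passed and 3.64% had an unadjusted p under 0.05. Of the 10 genes, edgeR and DESeq2 called none, where they called 1 of 23161 and 17 of 21439 genes. *Pfkp* and *Tigar* were below, and *Pfkfb1* and *Pfkfb4* above, the PKM2fl/fl range in each PKM2-/- heart, with 2 libraries a group. These are 4 of the 10 genes, and 34.9% of all genes did not overlap in this comparison. After sham surgery none of the 10 passed by limma, edgeR or DESeq2. Of all genes, 0.00972% passed by limma, and DESeq2 called 273 of 19883. The libraries of 2 of the 10 (*Pfkl* and *Pfkp*) did not overlap, against 16.5% of all genes. *Pfkp* was the 1 gene with an unadjusted p under 0.05 (9.95% of all genes), higher in PKM2-/- hearts by 0.43 on the log2 scale (standard error 0.15, adjusted p = 0.326). After MI none passed by limma or edgeR, against 0.967% of all genes by limma and 138 of 23161 by edgeR. By limma, 2 had an unadjusted p under 0.05 (17% of all genes). *Pfkfb2* was lower (log2 fold change -0.60, 95% interval -0.99 to -0.21, adjusted p = 0.113) and *Pfkfb4* higher (0.45, 0.056 to 0.84, adjusted p = 0.231) in PKM2-/- hearts, and *Pfkfb3* was higher (0.47, adjusted p = 0.356). The libraries of these 3 genes did not overlap, as in 18.9% of all genes. Of the 10 genes, DESeq2 called *Pfkfb2* (-0.64, adjusted p = 0.0267), where it called 1033 of 18329 genes.

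By limma, the genotype calls after MI of *Pfkm*, *Pfkfb2* and *Tigar* turned on the library of PKM2fl/fl MI replicate 3. DESeq2 called *Pfkfb2* with this library included. Without it, these 3 genes were lower in PKM2-/- than in PKM2fl/fl hearts after MI: *Pfkm* (log2 fold change -0.93, adjusted p = 0.0011), *Pfkfb2* (-0.84, adjusted p = 0.0027) and *Tigar* (-0.67, adjusted p = 0.0132), and 2279 of all genes passed in place of 199. That library had the lowest cardiomyocyte marker sum of its group, 298110, within the PKM2-/- MI range of 294937 to 378357. Replicates 1 and 2 had 655739 and 648433. Per 1000 marker counts after MI, the genotypes overlapped for *Pfkm* (7.06 to 9.07 and 7.80 to 9.21, PKM2fl/fl first). So did *Pfkfb2* (2.64 to 3.64 and 2.67 to 3.49) and *Tigar* (0.823 to 1.09 and 1.01 to 1.27). The part of the marker level in these calls was not tested. In the test of the interaction of genotype and MI, none of the 10 genes passed (limma, adjusted p of 0.714 or more, 0 at an unadjusted p under 0.05). By limma, 0% of all genes passed and 8.28% had an unadjusted p under 0.05. Of the 10 genes, 0 passed by edgeR and DESeq2, where DESeq2 called 52 of 21439 genes and edgeR 0. The interaction of *Pfkm* was -0.45 (95% interval -1.25 to 0.36), and without PKM2fl/fl MI replicate 3 it was -0.89 (adjusted p = 0.0304). For the genotype shares after MI, an exact permutation test of 3 libraries against 3 allows no p below 0.1. The *Pfkfb2* share differed by -13.1 percentage points (PKM2-/- minus PKM2fl/fl, exact permutation p = 0.1) and the *Pfkm* share by -10.3 (exact permutation p = 0.4).

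Sham surgery by itself was compared with baseline over both genotypes. None of the 10 genes passed (limma, 0 called, 2 at an unadjusted p under 0.05, and 0 by edgeR and DESeq2). Of all genes, 6.54% passed by limma (19.8% unadjusted), 1289 of 23161 by edgeR and 1888 of 21439 by DESeq2. *Pfkp* was higher by a log2 fold change of 0.35 (95% interval 0.097 to 0.60, adjusted p = 0.0988) and *Pfkfb3* by 0.45 (0.028 to 0.87, adjusted p = 0.216). *Pfkp* passed without PKM2-/- baseline replicate 2 (0.49, adjusted p = 0.036) and *Pfkfb3* without PKM2-/- sham replicate 3 (0.60, adjusted p = 0.0414). The sham libraries are shared by this comparison and those of MI.

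Of 20 other glycolytic genes, 19 were tested. In PKM2fl/fl hearts, 3 rose, 9 fell and 7 did not pass after MI, with a median log2 fold change of -0.20. In PKM2-/- hearts, 3 rose, 10 fell and 6 did not pass, with a median of -0.50. *Gpi1*, which makes the substrate of phosphofructokinase, fell (log2 fold changes -0.42 and -0.50 in PKM2fl/fl and PKM2-/- hearts, adjusted p = 0.006 and 0.0015). *Aldoa*, the muscle aldolase that cleaves its product, fell (log2 fold changes -0.85 and -1.15, adjusted p = 0.001 and 6.2e-05). *Aldoc*, below the filter, had 0 to 4 reads in baseline and sham libraries and 10 to 29 after MI. Large changes of the list in PKM2fl/fl hearts were seen in *Hk3*, a hexokinase of blood cells (log2 fold change 2.78, adjusted p = 1.2e-05), and in *Ldhb*, the heart form of lactate dehydrogenase (-2.07, adjusted p = 1.1e-05).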

How the data were processed

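RNA from left ventricles was depleted of rRNA, and libraries were sequenced in pairs. Per the study's methods, the authors used PRINSEQ for trimming, HISAT2 with mm10 for alignment, featureCounts for counts per gene and DESeq2 for scaling. The deposited signal is the read count divided by the size factor of its library, so the values are normalized counts. How featureCounts treated strand and multi-mapped reads is not given in the sources used here, so reads of overlapping genes may be shared. Columns of the authors' own baseline comparison (log2 fold change, p-value and score) were deposited too and were not used.

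Division by the step of each library gave whole reads for 100.0% of values (tolerance 0.05). The log2 of the normalized count plus 1 was modelled with limma 3.58.1 (R 4.3.3) for 16 libraries and 6 groups, for genes with a mean of at least 10, with Benjamini-Hochberg adjustment over 20576 genes. Since counts had been a possible unit, edgeR 4.0.16 and DESeq2 1.42.0 on the recovered reads were alternatives. The other alternatives were TMM factors, a pseudocount of 0.1, total reads with and without rRNA-related loci, only the groups compared, no filter, the replicate number as a block, and each library left out. Fold changes are on the log2(value + 1) scale. The fits were tested on simulated data with few changed genes, as many raised as lowered, and the same dispersion for every gene. Far more genes were called after MI in these data, so that test does not show how the fits do there.

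The members were chosen by symbol, and the members and lists were chosen with earlier results of these data known. The genes named are all 10 members, *Gpi1*, *Aldoa* and *Aldoc*, called glycolytic genes with the greatest change by size (1 item that this rule names is not reported here), and the 3 genes with the highest Pearson r for *Pfkm*, *Pfkl*, *Pfkp* and *Pfkfb3*. *Gm29427* was named after its values were seen. Exon lengths come from GENCODE M39 on GRCm39, and promoters from RefSeq on GRCm38.p6. Each library is 1 mouse, and the main fit did not pair mice by replicate number.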

Additional observations from a re-analysis of the deposited data

How the results depend on the processing

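Each group mean rests on 2 or 3 mice, and the main limma fit estimated the spread of a gene over all 6 groups together. A depth of 20623769 or more reads a library left *Fbp1* with as few as 2 reads. Of the members' fold changes between sham and MI, only those of *Pfkl* in PKM2-/- hearts changed sign. They did so under scaling to total reads (0.16) and to the total without rRNA-related loci (0.0029). The median of all genes in that comparison was 0.52 and 0.37 under these scalings. The share of higher calls in PKM2-/- hearts moved from 50.5% to 79.4% and 72.6%. In PKM2fl/fl hearts that share moved from 49.5% to 39.7% and 67.2%. The *Pfkfb1* share lost its call per kilobase of canonical transcript, an alternative chosen after seeing the data (-4.80 percentage points, exact permutation p = 0.065).

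Counts of all genes called moved by over 1.5 times as follows. With only the groups compared, 48 genes were called between genotypes at baseline (2 in the fit of all libraries), 9 after sham surgery (2) and 6 after MI (199). With total reads, the counts were 6023 for MI in PKM2fl/fl hearts (10299), 52 for the interaction (0), 44 at baseline, 113 after sham surgery, 121 after MI and 662 for sham against baseline (1346). After sham surgery, 0 genes were called without rRNA-related loci or without a filter. At baseline, a pseudocount of 0.1 gave 9 and edgeR gave 1. DESeq2 gave 52 for the interaction, 17 at baseline, 273 after sham surgery and 1033 after MI, with 1 member (*Pfkfb2*). The causes were not tested.

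Leaving out each library gave 0 to 486 genes and 0 to 1 members for the interaction, 0 to 40 genes at baseline, 0 to 90 after sham surgery, 11 to 2279 genes and 0 to 3 members after MI, and 690 to 1513 genes and 0 to 1 members for sham against baseline. The extremes after MI were without PKM2-/- MI replicate 3 (11) and without PKM2fl/fl MI replicate 3 (2279).

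Of 36 same-number pairs of libraries, 1 had a correlation of deviations from the group mean over 0.1 (range -0.196 to 0.126). Pairs with different numbers were not compared, so this check cannot decide whether replicate numbers pair the mice. With the replicate block, 1 gene was called at baseline, 0 after sham surgery and 75 after MI, *Pfkl* in PKM2-/- hearts lost its call (adjusted p = 0.0583), and the *Pfkfb1* share moved by -7.28 percentage points with an exact p of 0.0625.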
